A study of Bos taurus with 2 samples.

Results

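Broad unmethylated valleys are stretches of several kilobases in which CpG sites carry little methylation. In the 2 bone samples studied here, 938 such valleys were found on chromosomes 1 to 29, and they held 4758 windows of 1 kb out of 1826611 windows with enough data (0.260%). Members were chosen by their measured levels. A window had enough data when 5 or more of its positions were CpG sites and each sample gave 20 or more calls, and a valley was a run of at least 4 consecutive windows, each under 20% methylated in both samples. The levels of both samples therefore chose the valleys, and these levels are given below as a description, without a test. Runs of 1 to 3 such windows, 17704 runs with 27248 windows, served for comparison, so the valleys made up 14.9% of the 32006 windows under 20% in both samples.

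The study combined DNA methylomes of cattle tissues with histone marks carried over from human. Its whole-genome bisulfite sequencing (WGBS) of bone, in which every read over a CpG gives a methylated or an unmethylated call, comprised 2 samples, Bone_1 and Bone_2, both labelled bone of female Holstein cattle. No treatment, age or animal is given in the labels, so both samples form 1 group and their spread may be technical. Bone is a mixture of bone-forming and bone-resorbing cells, cartilage and marrow, and the share of each cell type is not given.

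In vertebrates most CpG sites are methylated, apart from CpG islands at gene starts. DNA methylation valleys are longer unmethylated stretches that lie over genes for transcription factors and signalling proteins of the embryo. They are known to be kept unmethylated in many tissues, whether the gene is used or silenced there by Polycomb proteins.

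The samples held 582241763 and 440334436 calls in all. On chromosomes 1 to 29 they held 445684877 and 389385549, which is 17.1 and 14.9 per CpG site. Bone_1 was methylated at 72.4% and Bone_2 at 59.0% of all calls there. In the valleys the depth was 16.5 calls per site in Bone_1 and 6.90 in Bone_2, but the difference turned with CpG density. In valley windows of 5 to 9 sites Bone_2 was the deeper sample, with 21.6 calls per site against 11.6 in Bone_1, whereas in those of at least 100 sites it had 4.05 against 17.8. The limit of 20 calls left out 77101 windows through Bone_1 and 14447 through Bone_2, and among windows of at least 40 sites 1338 and 1397. Intervals below are 95% Wilson intervals and cover counting error only, as reads without molecular identifiers are not independent and 1 read can call several sites.

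The valleys ranged from 4 to 23 windows. Of the 938, 533 (56.8%) had exactly 4 windows, 80 had at least 8 and 39 at least 10, and the mean length was 5.07 windows with an SD of 1.98 between valleys. The plot of run lengths shows a continuous fall in numbers from runs of 1 window (9926) through runs of 3 (1766) to the longest, with no gap at the length of 4 that the rule used. Just inside and outside that limit the values were close. Valleys of 4 windows were methylated at 3.66% in Bone_1 and 4.57% in Bone_2, while runs of 3 windows were at 3.34% and 4.60%. Near the limit on methylation, 21 of the 4758 valley windows lay at 18 to 20% in both samples. Among the 1794605 windows outside any run, 204 lay at 20 to 22% in both. These are unlike sets, and windows of runs of 1 to 3 are in neither count, so the numbers are not to be compared.

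**Figure D1:**
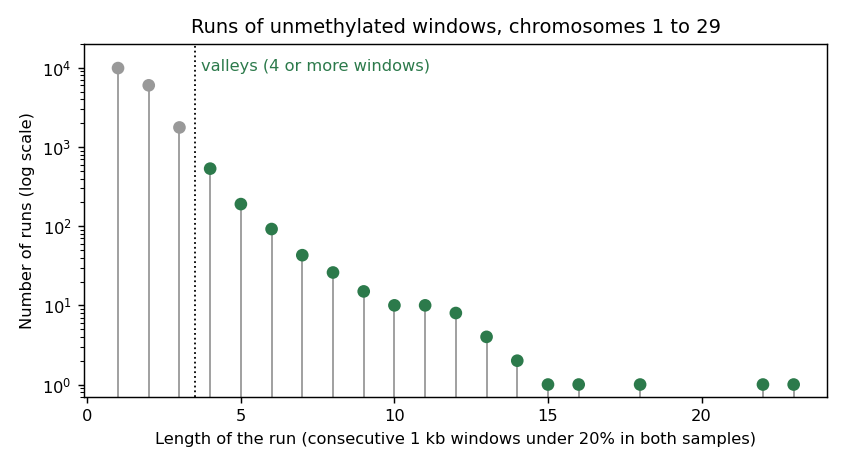
Number of runs (log scale) against their length in consecutive 1 kb windows under 20% in both bone samples; each point is 1 length, grey for runs of 1 to 3 windows and green for valleys. Numbers fall from 9926 runs of 1 window to 533 of 4 windows and to 1 of 23 windows.

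The longest valley, 23 windows with 967 CpG sites at chr21:46689001-46712000, held an end of NKX2-1, a homeobox factor of lung, thyroid and forebrain development. It was methylated at 9.96% in Bone_1 and 7.40% in Bone_2. Single windows in it ranged from 2.34% to 18.2% in Bone_1 and from 0.862% to 16.8% in Bone_2. On its right side the next window stood at 80.2% and 49.7%, so the change took place within 1 kb. These coordinates are those of the deposited counts, for which the submitters' processing notes name the build ARS-UCD1.2. The stated methods of the study name UMD3.1.1 instead, and how well genes could be placed on these coordinates is given further on.

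HMX1, a homeobox factor of eye and ear development, had an end in the second longest valley, 22 windows with 1308 CpG sites at chr6:115021001-115043000. It stood at 5.53% in Bone_1 and 5.16% in Bone_2. The valley of NKX2-2, a homeobox factor of ventral neural tube and pancreatic islet cells, had 18 windows at chr13:40752001-40770000, with 6.26% and 6.39%. TBX5, a T-box factor of forelimb and heart, lay in a valley of 16 windows at chr17:60262001-60278000, with 9.13% and 9.10%. The left edge of this last valley was set by Bone_1 alone, since the window next to it was at 32.0% in Bone_1 and at 10.5% in Bone_2. The profiles of the 4 longest valleys show low levels over their whole length in both samples, whereas Bone_1 lay above Bone_2 in most windows outside.

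**Figure D2:**
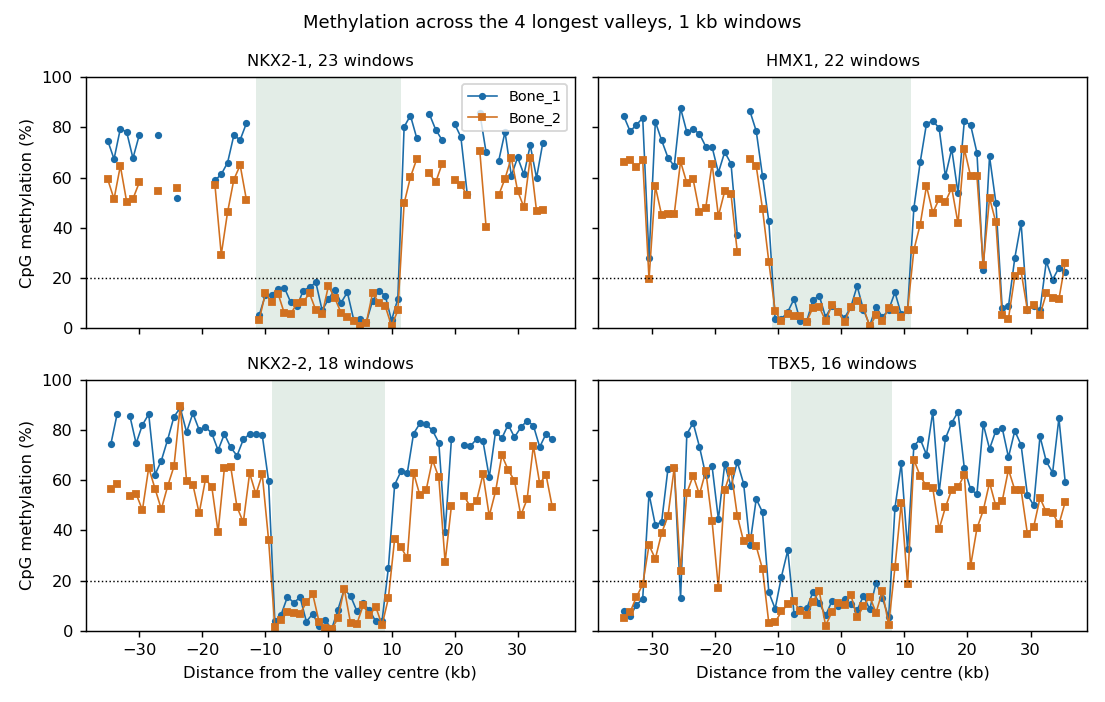
CpG methylation (%) of 1 kb windows against the distance from the valley centre (kb) in the 4 longest valleys, with Bone_1 in blue and Bone_2 in orange; shading marks the valley, the dotted line is 20% and breaks are windows with under 20 calls in either sample. Inside the NKX2-1 valley no window exceeded 18.2% in Bone_1 or 16.8% in Bone_2, and next to its right edge the levels were 80.2% and 49.7%.

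Of the 20 longest valleys, with ties broken by the number of CpG sites, 16 held an end of a protein-coding gene, and 13 of these held one from the lists of developmental regulators described further on. The tie-break took IRX2 from 10 valleys of 11 windows, and among the 19 valleys of 12 or more windows 12 held a gene of those lists. The 20 had 11 to 23 windows, and their levels ranged from 4.01% to 11.6% (median 7.39%) in Bone_1 and from 4.06% to 9.10% (median 6.48%) in Bone_2. PTF1A, a factor of pancreas and cerebellum, shared a valley of 15 windows with C13H10orf67 at 8.44% and 6.22%. EN2, a homeobox factor of midbrain and hindbrain, had a valley of 14 windows at 5.83% and 5.45%. HMX2 and HMX3, homeobox factors of the inner ear, shared another of 14 windows at 4.57% and 4.91%. IRX4, a homeobox factor of the heart ventricle, shared 13 windows with LOC132343196 at 7.46% and 5.62%. SP9, a zinc finger factor of limb and forebrain, had 13 windows at 4.38% and 7.30%, and was among the few in this group with the higher level in Bone_2.

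The others of the 20 longest followed the same range. LHX9, a LIM homeobox factor of the gonad, LHX1, a LIM homeobox factor of kidney and head, and BARHL1, a homeobox factor of hindbrain and ear neurons, each had 12 windows. DMRTA2, a factor of the cortex, and NEUROD2, a neuronal bHLH factor, had 12 windows as well. IRX2, a homeobox factor, had 11 windows at 11.6% in Bone_1 and 7.55% in Bone_2, and among the valleys of 12 or more windows the highest level in Bone_1 was 10.1%. The widest gap within this group was that of SOX14, a SOX factor of the nervous system with 12 windows, which stood at 9.24% in Bone_1 and 4.67% in Bone_2. In 14 of the 20, and in 13 of the 19 with 12 or more windows, Bone_2 was the lower sample. It was lower in 35.7% of all 938 valleys and in 94.2% of all single windows with enough data. Levels kept under 20% have little room to differ, so nothing is read from these counts.

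Among the 20 longest valleys, 4 held no end of a protein-coding gene. The first, 13 windows at chr7:88212001-88225000, held an end of the noncoding LOC100616526 and lay 21676 bp from MEF2C, a factor of muscle, heart and cartilage. It was methylated at 8.18% and 6.47%. The next, 13 windows at chr17:60226001-60239000 with 10.1% and 7.80%, lay 28428 bp from TBX5. A valley of 12 windows at chr25:2620001-2632000 with 7.41% and 7.05% lay 18220 bp from OR1F1, an odorant receptor gene. The last, 12 windows at chr2:134013001-134025000 with 7.37% and 6.49%, lay inside LOC536229.

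Over all valleys, 4.40% (interval 4.38 to 4.41) of 4672738 calls were methylated in Bone_1 and 5.06% (5.03 to 5.09) of 1957415 calls in Bone_2, a mean of 4.73% ± 0.469 (SD, n = 2). Runs of 1 to 3 windows were at 4.04% and 5.51%. All other windows with enough data were at 78.3% and 61.4%, so Bone_1 was 16.9 points above Bone_2 there, whereas in the valleys Bone_1 minus Bone_2 was -0.66 points over all calls. This sign turned with the measure, since the median difference over single valley windows was 0.15 points, and Bone_1 lay above Bone_2 in each density class of at least 40 CpG sites and below it in each class of fewer. Bone_2 was the lower sample in 2602 (54.7%) of the valley windows, beside 94.2% of all windows with enough data. It was lower by at least 10 points in 41 (0.862%) of them, beside 76.4% of all. A window kept under 20% in both samples has little room to differ, so nothing is read from these shares. No methylated call at all was found in 57 valley windows of Bone_1 and 134 of Bone_2, the latter with fewer calls.

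A level that the rule did not use was had by finding the runs in 1 sample and reading them in the other. In Bone_1 alone, 1139 runs with 5778 windows met the rule. Of these windows 93.5% were under 20% in Bone_2, beside 2.07% of all windows with enough data. Of these runs, 823 (72.3%) were under 20% in Bone_2 in each of their windows, and their calls in Bone_2 together were 7.18% methylated. In Bone_2 alone, among the same windows with enough data in both samples, 1114 runs with 5989 windows met it. Of these windows 91.6% were under 20% in Bone_1, beside 2.06% of all, and 749 runs (67.2%) were so throughout. Their calls in Bone_1 were 5.25% methylated. For runs of 1 to 3 windows read in the same way the shares were somewhat lower. Of their windows found in Bone_1, 83.4% were under 20% in Bone_2, and 83.3% the other way. Neighbouring windows of 1 pair of libraries are not independent, so these shares carry no interval and their difference was not tested.

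Most ends of valleys lay where both samples became methylated. Of the 1876 ends, 1250 (66.6%) were followed by a window at or over 20% in both samples, 223 (11.9%) by one that passed 20% in Bone_1 alone and 120 (6.40%) in Bone_2 alone. Another 228 ends (12.2%) were followed by a window of under 5 CpG sites. At 54 ends the next window had under 20 calls in Bone_1 alone, at 1 end in both samples and at none in Bone_2 alone, so the true extent at these ends is unknown.

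Within the valleys the outermost windows were methylated at 5.92% in Bone_1 and 6.93% in Bone_2. The second windows from either end were lowest, with 3.11% and 3.37%, and had the most CpG sites, a median of 69 against 45 in the outermost. Windows farther inside, which only valleys of at least 5 windows have, were at 5.10% and 5.17% with a median of 59 sites. Outside, the first kilobase from the edge was at 45.3% and 38.5%, the second at 51.7% and 44.3% and the tenth at 58.5% and 51.2%. At 20 kb the levels were 67.7% and 56.2%, and at 30 kb 68.3% and 56.5%.

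Runs of 1 to 3 windows had narrower flanks. In their second kilobase outside they were already at 67.0% in Bone_1 and 57.6% in Bone_2, above the valleys at the same distance, and at 30 kb they stood at 69.0% and 58.8%. The difference lay in the same direction in both samples, as the plot of methylation by distance shows. Other unmethylated windows were more common beside valleys. In the second kilobase 11.1% of windows belonged to another run under 20%, beside 2.82% around shorter runs, and in the tenth 8.72% beside 3.98%. With windows of any such run left out, the second kilobase was at 66.1% and 53.3% beside valleys and at 72.5% and 60.5% beside shorter runs, and the tenth at 76.1% and 60.1% against 78.6% and 62.9%.

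**Figure D3:**
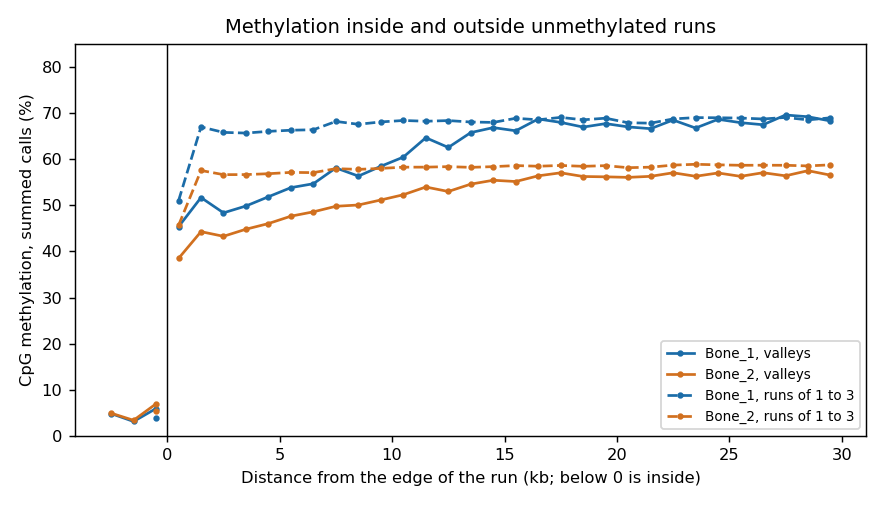
Methylation of summed calls (%) against the distance from the edge of the run (kb; below 0 is inside) in Bone_1 (blue) and Bone_2 (orange), for valleys (solid lines) and runs of 1 to 3 windows (dashed lines). In the second kilobase outside, valleys were at 51.7% and 44.3% and shorter runs at 67.0% and 57.6%.

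Properties of the sequence, which the rule did not use beyond the 5 sites needed, set valleys apart from the bulk of the genome but hardly from shorter runs. Valley windows had a median of 57 CpG sites (quartiles 33 and 81, range 5 to 184), shorter runs a median of 55 and all other windows 10. At least 40 sites were found in 68.8% of valley windows, 67.9% of those in shorter runs and 1.96% of the others. Neighbouring CpG sites lay a median of 8 bp apart in valleys and in shorter runs, and 39 bp apart elsewhere. C or G followed the CpG dinucleotide at 72.6% of valley cytosines, 73.2% of those in shorter runs and 48.4% of those elsewhere.

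The share of windows that lay in a valley rose with CpG density, from 0.0145% of windows with 5 to 9 sites to 8.81% of those with 60 to 79 and 13.1% of those with 80 to 99, and was 12.9% at 100 or more. Among windows under 20% in both samples, however, the share that belonged to a valley changed little with density, from 11.01% at 5 to 9 sites to 16.3% at 80 to 99. The remaining methylation of valley windows fell with density in both samples. It was 9.15% in Bone_1 and 10.2% in Bone_2 at 5 to 9 sites, 6.10% and 5.94% at 40 to 59, and 2.47% and 2.11% at 100 or more. By the base after the CpG the levels of valley cytosines differed little, from 4.06% to 4.64% in Bone_1 and from 4.53% to 5.50% in Bone_2, lowest before G in both.

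A few single sites inside the valleys were methylated. Of 283728 sites, 41726 (14.7%) had at least 10 calls in each sample. Among these, 841 (2.02%) were at or over 50% in Bone_1 and 477 (1.14%) in Bone_2, and 367 were so in both. In shorter runs 4.94% and 3.29% of such sites were at or over 50%, and in other windows 92.2% and 79.5%. The 367 were spread over 216 valleys, with at most 8 in 1 valley. No methylated call was found in either sample at 43.7% of the valley sites with that depth, beside 56.3% in shorter runs. Sites with that depth lean to windows of few CpG sites, where Bone_2 was deeper.

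Some valleys lay close together. The median of 909 gaps between neighbours on a chromosome was 1359 kb, but 118 gaps (12.98%) were at most 50 kb and 66 (7.26%) at most 5 kb. Joined at gaps up to 100 kb, the 938 valleys formed 779 groups, of which 665 were a single valley and 13 held at least 4. The largest number, 6 valleys with 33 windows over 141 kb of chromosome 12, held ends of PDX1, the pancreas factor, GSX1, a homeobox factor of the brain, CDX2, the intestinal homeobox factor, and URAD. On chromosome 21, 4 valleys with 37 windows over 177 kb held NKX2-1, NKX2-8 and PAX9, a paired-box factor of teeth and vertebrae. A group of 4 on chromosome 15 held PAX6, the eye and forebrain factor. Only 1 of the 13 groups, 4 valleys with 22 windows over 54 kb at chr21:20829001-20883000, held no end of a protein-coding gene.

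By chromosome, valley windows made up between 0.115% of windows on chromosome 27, with 9 valleys, and 0.521% on chromosome 19, with 56 valleys. Chromosome 23 followed with 0.518%, and the longest, chromosome 1, had 0.153%.

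Genes were placed with the RefSeq annotation of ARS-UCD2.0, a different assembly from either named for the counts, so its fit was measured first. In 244 segments of 10 Mb, methylation within 500 bp of annotated gene ends was compared with that at positions moved by up to 20 kb to either side. It was lowest at the unmoved position in 242 segments and within 1 kb of it in all 244, with a median of 45.9% there against 68.1% at the moved positions. For gene ends pooled by segment, coordinates of both therefore matched to about 1 kb. A local shift at a single gene or valley would not be seen in this check. Another 23 segments, which hold 19 (2.03%) of the valleys, had under 40 gene ends and were not checked. The gene positions used here came without strand, so a gene was counted where either of its ends lay in a valley, whether its start or its stop.

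Of 20280 autosomal protein-coding genes, 861 (4.25%) had an end in a valley and a further 10799 (53.2%) in a run of 1 to 3 windows. Conversely, 729 valleys (77.7%) held an end of a protein-coding gene. Of these, 603 held 1 gene, 115 held 2 and 11 held at least 3. Among the last were histone genes, H2BC17, H2AC17 and H3C12 in 1 valley of 5 windows, and H2AC20, H2AC21 and H2BC21 in another of 4 windows. Histone genes have near-identical copies, so reads may be misplaced between them, and these valleys had 33.1 and 33.2 calls per site in Bone_1. Of the 209 valleys without such an end, 97 lay inside a gene and 112 between genes, at a median of 12.7 kb from the nearest. An end of a noncoding gene lay in 25 of the 209.

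Developmental transcription factors often had an end in a valley. The 4 lists of HOX genes, other homeobox genes, T-box, SOX, FOX, PAX and GATA genes, and bHLH and zinc finger regulators held 266 genes on the autosomes, and 142 of them (53.4%) had an end in a valley, beside 4.25% of all protein-coding genes. Another 92 (34.6%) had one in a shorter run and 32 in neither. Without Bone_1, 163 were in a valley, and without Bone_2, 157. The lists were chosen with earlier results of these data known and were not tested for enrichment. They are partial, as HMX1, SP9, DMRTA2, PDX1 and NKX2-8, all transcription factors with an end in a valley, are in none of them. "Neither" does not mean that the gene is methylated at its start, since a short unmethylated start can lie in a window that is partly methylated.

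The list of other homeobox genes had the highest share of the 11 lists, 64 of its 92 genes (69.6%), with a median valley of 7 windows. Next to those named above were LHX3 (11 windows, 8.58% and 7.44%), a LIM homeobox factor of pituitary and motor neurons, and GBX2 (11 windows, 6.39% and 6.76%), a factor of the hindbrain boundary. The 5 in neither kind of run included CDX1, an intestinal factor, and MEOX1, a somite factor. Within 500 bp of its ends CDX1 was at 66.7% or more in both samples.

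HOX genes, which set identity along the body axis from 4 clusters, had an end in a valley in 9 of 39 cases (23.1%), with 18 in shorter runs and 12 in neither. HOXA10 had the longest valley of them, 8 windows at 5.75% in Bone_1 and 9.22% in Bone_2. HOXA9 followed with 7 windows at 4.46% and 6.65%. HOXB7 and HOXB8 shared 6 windows at 2.06% and 1.45%, the lowest of the 9 in valleys, and HOXC13 had 6 windows at 14.8% and 9.78%, the highest of the 9 in Bone_1. HOXA3, at 43.7% or more at both ends, was in neither kind of run. This count depended on the sample that chose the runs, as it was 19 of 39 without Bone_1 and 14 of 39 without Bone_2.

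T-box, SOX, FOX, PAX and GATA genes lay in valleys in 31 of 57 cases (54.4%). The longest after TBX5 and SOX14 were those of FOXD3, the neural crest forkhead factor (11 windows, 8.78% and 9.42%), and PAX6 (11 windows, 5.70% and 6.44%). PAX8, the thyroid and kidney factor, GATA3, a factor of T cells and kidney, PAX1, a factor of vertebral cartilage, and TBX21, the T helper factor, were in neither kind of run. TBX21 and PAX1 were nevertheless low at 1 end, with 2.14% and 3.18% for TBX21 and 3.99% and 10% for PAX1.

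Of the bHLH and zinc finger regulators, 38 of 78 (48.7%) were in valleys. FEZF2, a forebrain factor, had 10 windows at 8.31% and 5.93%, and SIM2, a bHLH factor of the nervous system, had 9 windows at 9.33% and 7.07%. MYF5, the muscle determination factor, EBF1, the B cell factor, NHLH1 and GLIS3 were in neither kind of run.

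Signalling ligands, receptors and antagonists were in valleys in 20 of 77 cases (25.97%, beside 4.25% of all protein-coding genes), with 39 in shorter runs and 18 in neither. SHH, the hedgehog ligand of limb and neural tube, had the longest, 10 windows with 870 sites at 8.19% in Bone_1 and 3.78% in Bone_2. GDF6, a BMP family ligand of joints and skull, had 8 windows at 5.54% and 5.83%. FGF9, a growth factor of skeleton and lung, had 7 windows at 1.99% and 2.48%, and NOG, the BMP antagonist, had 6 at 1.60% and 2.39%. SOST, the Wnt antagonist made by osteocytes, was in neither kind of run, with 80.7% and 82.3% at its ends in Bone_1 and 45.8% and 62.3% in Bone_2. GDF5, a BMP family ligand of joints, BMP5 and WNT16 were in neither as well.

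Genes of the skeleton itself were described in 2 lists. Of 33 bone and cartilage transcription factors, 7 (21.2%, beside 4.25% of all protein-coding genes) had an end in a valley, 21 in a shorter run and 5 in neither. Of the 33 genes, 18 are also in the 4 regulator lists, and so are 6 of the 7, so the count is not a separate result. DLX5, a homeobox factor of limb and osteoblasts, had 10 windows at 8.05% and 9.97%. NKX3-2, a repressor of cartilage maturation, had 5 windows at 7.72% and 5.93%. SOX9, the master factor of cartilage, had 4 windows at 7.63% and 4.99%. RUNX2, the master factor of osteoblasts, was in neither kind of run. It was at 19.6% (of 56 calls) and 14.6% (of 158 calls) at 1 end and at 94.6% and 65.5% at the other. RUNX3, MEF2C and TCF7, the last a factor of T cells and of Wnt signalling, were in neither too.

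Of 35 bone and cartilage matrix and effector genes, 1 (2.86%, a share near the 4.25% of all protein-coding genes) had an end in a valley, namely COL2A1, the main collagen of cartilage, with 4 windows at 3.61% and 3.20%. A further 15 were in shorter runs and 19 in neither. Without Bone_1 the number in a valley was 2, and with at least 5 windows it was 0. COL1A1 and COL1A2, the chains of the main bone collagen, were in shorter runs of 2 and 1 windows. ALPL, the phosphatase of mineralising cells, BGLAP, which encodes osteocalcin, IBSP, which encodes bone sialoprotein, and SPP1, which encodes osteopontin, were in neither.

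Markers of the cells that bone may hold were placed in the same way, although methylation at a gene's end is no measure of its expression. Of 8 markers of bone-forming cells, 3 (SP7, COL1A1 and COL1A2) were in shorter runs and 5 in neither. Of 3 cartilage markers, SOX9 and COL2A1 were in valleys and ACAN in a shorter run. ACP5 and TNFRSF11A of bone-resorbing cells were in shorter runs and CTSK in neither. Of 4 markers of white blood cells, CD3E was in a shorter run and 3 in neither, and neither KLF1 of red cells nor the 2 fat cell markers were in a run. GATA1 of red cells is not on these chromosomes. Among all 20280 protein-coding genes, 4.25% had an end in a valley, 53.2% in a shorter run and 8620 genes in neither. With so few markers per cell type, nothing is read from these counts. The mixture of cells in each sample cannot be told from these markers.

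Of 33 transcription factors of blood lineages, 11 (33.3%, beside 4.25% of all protein-coding genes) were in valleys, 12 in shorter runs and 10 in neither. Of these 11, 8 are also in the 4 regulator lists, so the count is not a separate result. BCL11A, a regulator of B cells and fetal globin, had 7 windows at 0.97% and 2.07%, and FLI1, a factor of megakaryocytes and vessels, had 6 at 2.94% and 3.49%. HOXA9, given above, is another of them. BCL11B, the T cell factor, had 5 windows at 1.98% and 2.30%. SPI1, the myeloid master factor, IKZF1, a lymphoid factor, LMO2, a stem cell factor, and KLF1 were in neither kind of run.

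Genes used in every cell nearly all had an end in a run of 1 to 3 windows, and few had one in a valley, where all protein-coding genes also had only 4.25% (53.2% in shorter runs). None of 61 cytosolic ribosomal protein genes had an end in a valley, and 58 (95.1%) had one in a shorter run. Leaving out either sample brought 1 into a valley. RPL32, RPL23 and RPS14 were in neither, and RPL32 was nevertheless at 0.810% and 0.435% at 1 end. Of 31 proteasome subunit genes, PSMB3 alone (3.23%, near the share of all genes) was in a valley, with 7 windows at 4.32% and 2.57%, and 28 were in shorter runs. Of 29 Polycomb group genes, 3 (10.3%) were in valleys, the longest of 9 windows, while 25 were in shorter runs and PCGF2 was in neither. Among the 3 was JARID2 with 5 windows at 2.51% and 3.01%. Most genes of these 3 lists thus had an unmethylated end outside any valley, as the plot of the gene lists shows.

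**Figure D4:**
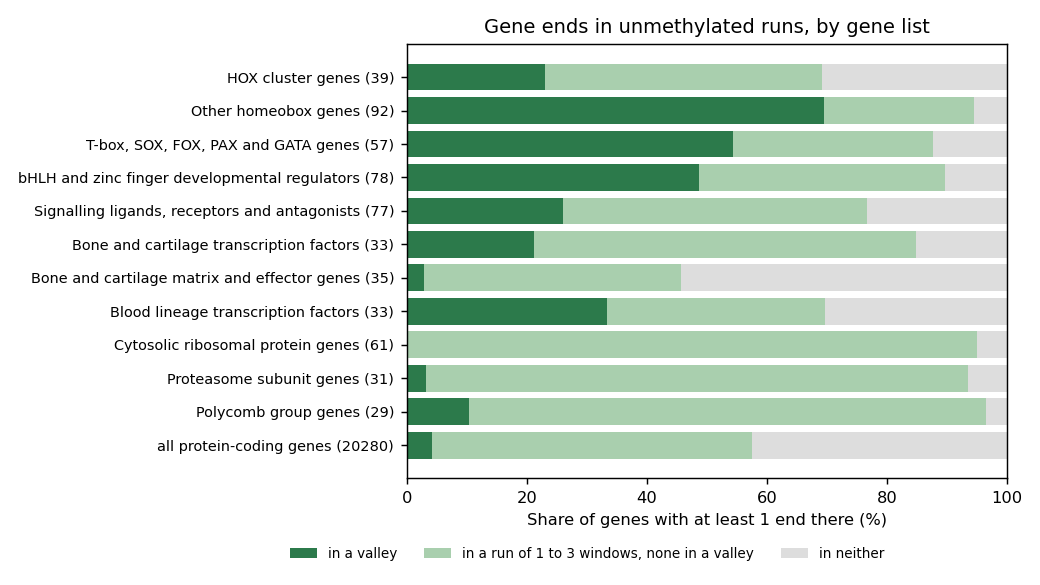
Share (%) of the genes of each list, with the number placed on chromosomes 1 to 29 in brackets, that had an end in a valley (dark green), an end in a run of 1 to 3 windows but none in a valley (light green) or neither (grey). Other homeobox genes reached 69.6% in valleys and ribosomal protein genes none, with 95.1% of the latter in shorter runs; all protein-coding genes had 4.25% in valleys.

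Valleys at genes of the 4 regulator lists were longer and had higher levels than valleys at other protein-coding genes. Length and level both belong to the rule, so these values are a description, and the other genes include regulators such as HMX1 and members of the other lists such as SHH. The 143 valleys that held an end of a gene of the 4 regulator lists had a median of 6 windows, and 47 (32.9%) had at least 8. The 586 valleys with other protein-coding genes had a median of 4 windows, and 24 (4.10%) had at least 8, as had 9 (4.31%) of the 209 valleys without such a gene. The median level of the regulator valleys was 6.08% in Bone_1 and 6.26% in Bone_2, against 2.29% and 3.92% at other genes and 6.22% and 6.54% where no gene end lay. In Bone_1, 17.5% of regulator valleys and 60.1% of those at other genes were under 3%. In Bone_2 these shares were 10.5% and 34.1%. The median CpG density was 63.0 sites per window at regulators, 60.8 at other genes and 50 where there was no gene end, and its part in these levels was not tested. Calls per site were 15.6 and 6.77 at regulators and 17.1 and 6.70 at other genes.

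Longer valleys had higher levels, so the classes are also given by length. Valleys of 4 windows at regulators (35 valleys) had medians of 4.79% and 4.63%, against 2.20% and 3.95% at other genes (386 valleys) and 5.52% and 6.19% without a gene end (112 valleys). At 5 to 7 windows they stood at 5.54% and 6.17% (61 valleys) against 2.32% and 3.72% (176 valleys) and 6.55% and 6.79% (88 valleys). At 8 or more windows they were at 8.05% and 6.92% (47 valleys) against 5.63% and 5.19% (24 valleys) and 7.67% and 7.05% (9 valleys). Valleys without a gene end thus had the highest medians except in Bone_1 at 8 or more windows, where those at regulators did. The levels of single valleys of these classes overlapped widely. Among long valleys TNRC18, with 11 windows, stood at 1.24% and 1.64%.

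**Figure D5:**
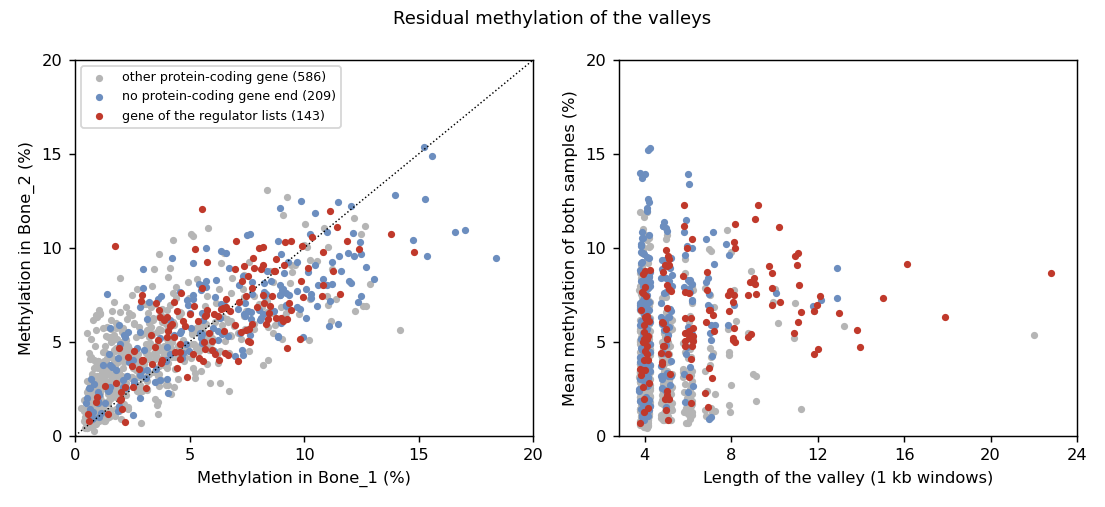
Left, methylation (%) of each of the 938 valleys in Bone_1 (x axis) and Bone_2 (y axis), with the dotted line at equal levels; right, the mean of both samples (%) against valley length in 1 kb windows, with points spread sideways for legibility. Red points are valleys at genes of the regulator lists (143), grey at other protein-coding genes (586) and blue without a gene end (209), with medians in Bone_1 of 6.08%, 2.29% and 6.22%.

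The levels of the 938 valleys went together in both samples, with a Pearson correlation of 0.779 and a Spearman correlation of 0.798 as a description across valleys of the same 2 libraries, all chosen to be under 20%. By summed calls, Bone_2 was the lower sample in 335 of the valleys (35.7%). By single windows it was lower in 54.7% of valley windows, beside 94.2% of all windows with enough data. Summed over each valley, it was lower in 44.8% of the valleys at regulators, 28.5% at other genes and 49.8% where no gene end lay. Calls per site in Bone_2 fell with CpG density, so its summed levels lean to windows of fewer sites, which were more methylated. Nothing is therefore read from these shares. The largest gap toward Bone_1 was 18.4% (16.8 to 20.1) against 9.44% (8.01 to 11.1) in 4 windows at chr20:31652001-31656000. Next came the valley of ACTA1, the actin of skeletal muscle, with 14.2% (13.3 to 15.1) against 5.64% (4.73 to 6.72). Toward Bone_2 it was largest at HEY1, a Notch target gene, with 1.74% (1.38 to 2.20) in Bone_1 and 10.1% (8.65 to 11.7) in Bone_2. GSC, a homeobox factor of head and limb, followed with 5.55% (4.80 to 6.42) and 12.1% (10.6 to 13.8). These valleys were picked for their gaps, and with 1 sample on each side no test between them was possible.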

How the data were processed

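After trimming, alignment with Bismark and removal of duplicate reads, the authors deposited unnormalized counts, with the methylated and the unmethylated calls listed for every CpG cytosine by strand. The submitters' processing notes name FastQC 0.11.5, Trim Galore 0.4.5, Bowtie2, Bismark 0.19.0 and the build ARS-UCD1.2. From these counts, both strands were summed into CpG sites, and windows of 1000 bp were formed on chromosomes 1 to 29. Levels are methylated calls over all calls. Mapping of repeated sequence and incomplete conversion would move low levels most, and lambda DNA was not analysed here. The total was 582241763 calls in Bone_1 and 440334436 in Bone_2. The search for runs was tested on simulated data.

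The valleys, gene lists and markers were chosen with earlier results of these data known. Gene starts and a check against the sequence were planned, but the table used gives no strand and no genome was used here, so gene ends and the check by shifted positions took their place. No sequence is shown for the same reason. Of 542 listed symbols, 532 were placed. Named were the 20 longest valleys, the 3 longest without a protein-coding gene end (a 4th is added because it is among the 20), the markers, and up to 4 members per list with the longest valleys, of which some are not reported here. Members outside valleys had no fixed order, and they, the valleys with the widest gaps, the groups of valleys, the histone genes, TNRC18 and the lowest, highest and further HOX and Polycomb genes were chosen after their values were seen. Samples formed 1 group, so no test was run. Alternatives varied the limits on level, length, calls and sites, the window grid, bridging, the deepest cytosines, the sample and the rule that ties genes to valleys. Python 3.11.15, numpy 2.4.6, pandas 2.3.3, scipy 1.17.1, pyarrow 21.0.0 and matplotlib 3.10.9 were used.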

Additional observations from a re-analysis of the deposited data

Results flagged for a closer look

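The X chromosome lies outside the rule for valleys. Among its 80105 windows with enough data, 6 runs of at least 4 windows under 20% in both samples were found. They held 27 windows (0.0337% of those on the chromosome, beside 0.260% on chromosomes 1 to 29), the longest had 6 windows, and their levels were 7.19% in Bone_1 and 6.01% in Bone_2. They are listed because they are signal in data that the comparisons above do not use, and there are no control samples to set them against.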

How the results depend on the processing

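No paired analysis was possible because both samples form a single group. A valley depends on its limits by construction. At a level of 10%, 15% and 30% there were 380, 647 and 1394 valleys with 1715, 3132 and 7576 windows, methylated at 2.37%, 3.69% and 7.84%, with medians of 66, 61 and 51 CpG sites per window and 1.83%, 3.08% and 6.27% of genes. The mean length was 4.51 windows at 10% and 5.43 at 30%. With at least 3 or 5 windows there were 2704 or 405 valleys with 10056 or 2626 windows, a mean length of 3.72 or 6.48 and 12.5% or 1.73% of genes, and with at least 5 the level was 5.27%. Listed genes in a valley numbered 171, and 72 at a level of 10% and 268 with at least 3 windows. With at least 10 CpG sites per window the median number of sites was 58.5. The share of genes was 4.07% with at least 50 calls, 3.98% with at least 10 CpG sites, 4.05% on a grid shifted by 500 bp, 4.37% with a missing window bridged, 4.42% with ends within 1000 bp of the valley and 4.63% for genes that overlap a valley, the last chosen after seeing the data.

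At a level of 10%, 88.3% of the windows of runs found in Bone_1 were under it in Bone_2, and 88.3% the other way, and at 30% the former share was 95.4%.

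Leaving out 1 sample gave 1127 to 1139 valleys with 5778 to 6092 windows, a mean length of 5.07 to 5.41 windows, a level of 5.59% to 5.71%, a median of 53 to 55 CpG sites, 5.08% to 5.26% of genes and 190 to 199 listed genes. Of 94 alternatives outside single lists, 51 were classed as the same and 43 as moved, under limits that differed between results. Of 84 for single lists or the 4 regulator lists together, 52 were classed as the same and 32 as moved. The latter include ribosomal counts that stayed at 0, so these numbers are no measure of stability. The 4 regulator lists together fell from 142 genes to 55 at a level of 10%, and the HOX genes from 9 to 2. With at least 3 windows, valleys held 7 ribosomal, 9 Polycomb, 38 signalling, 17 bone and cartilage factor and 19 blood factor genes, in place of 0, 3, 20, 7 and 11. At a level of 10% the last 3 were 11, 3 and 7, and with at least 5 windows 11, 4 and 7. The 20-call limit acted mostly through Bone_1, and single sites in CpG-dense windows were shallowest in Bone_2.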

Other observations

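The valley with the most calls per site in Bone_1 had 4 windows at chr18:48402001-48406000 and held an end of ACTN4, an actin-binding protein. It had 64.2 calls per site in Bone_1 and 10.8 in Bone_2. It was methylated at 1.79% and 5.76%. Without the deepest 0.1% of cytosines 937 valleys were found. Very low levels in both samples were seen at JAG1, a Notch ligand, with 4 windows at 0.55% and 0.80%, and at MYB, a factor of blood progenitors, with 5 windows at 0.46% and 1.17%. Both were chosen after their values were seen.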
